A study of Mus musculus and Rattus norvegicus with 35 samples.

Results

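Adult mouse lung was represented by 3 rRNA-depleted RNA libraries, chosen by their tissue label, out of 35 samples in the series. They were set against the 12 rRNA-depleted libraries of brain, heart, liver and testis. All 15 libraries came from C57BL/6 mice, and each of the 5 tissues had 1 library at 14 weeks of age and 2 at 20 weeks. Total RNA was extracted with TRIzol and ribosomal RNA was removed, so that circular RNAs, which have no poly(A) tail, were sequenced together with linear transcripts. The labels record no treatment, allele or sex for these mice. They also do not state whether the libraries of a tissue came from separate animals, so p-values measure the spread between these libraries, which may be partly technical. The series was built around circular RNAs of neural tissue, and lung served there as 1 of the tissues compared with brain.

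The lung exchanges gas across alveoli lined by flat alveolar type I (AT1) cells and by cuboidal type II (AT2) cells, which make surfactant, a film of lipid and protein that keeps alveoli open. A dense capillary bed lies against the alveolar wall, and the conducting airways are lined by secretory club cells and ciliated cells. Circular RNAs (circRNAs) arise when a downstream splice donor joins an upstream acceptor, called back-splicing. The resulting closed loop resists exonucleases, and its level depends both on transcription of the host gene and on how often the transcript is back-spliced rather than spliced linearly.

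Gene levels were TPM (transcripts scaled to a fixed sum per library) and circRNA levels were RPM (back-splice reads scaled to the library), in both cases the authors' values. The unit of 1 circRNA read was worth 1.24, 1.85 and 2.10 RPM in the lung libraries of 14 weeks, 20 weeks (first) and 20 weeks (second). They held 3212, 2453 and 2024 back-splice reads, against 1231 to 23286 in the other libraries. Values in lung are given below in that order of libraries. The 14-week lung library stood apart in that it lacked Y-linked transcripts, Ddx3y being at 0, 68.1 and 67.8 TPM. Without it, 7988 genes were higher and 4531 lower in lung (2293 above every tissue), 25 circRNAs were higher and 165 lower (4 above every tissue), and 27 circRNAs were higher and 268 lower relative to host, against the counts over all 3 libraries reported with each comparison. Differences are lung minus the unweighted mean of the 4 other tissues, on the scale log2(TPM + 1) for genes and log2(RPM + 1.18) for circRNAs, with limma's standard error (SE) and p-values adjusted over all features tested by Benjamini-Hochberg. A feature "passed" at an adjusted p under 0.05, and stood "above every tissue" when it passed in the same direction against brain, heart, liver and testis separately. In whole-tissue RNA, more cells of a type and more RNA per cell cannot be told apart.

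The tissue label was checked against 3 markers. Sftpc, surfactant protein C of AT2 cells, was measured at 17113, 14426 and 12478 TPM in lung, and at 0 to 7.27 TPM (median 1.31) in the other 12 libraries. Lamp3, a membrane protein of AT2 lamellar bodies, stood at 385, 447 and 387 TPM against 0 to 0.796, and Rtkn2, an AT1 marker, at 287, 313 and 312 TPM against 0.0547 to 6.06. All 3 lung libraries exceeded all 12 others for each marker by a wide margin. Differences were 12.45 (SE 0.54, adjusted p = 3.5e-10) for Sftpc, 8.45 (SE 0.12, adjusted p = 1.5e-14) for Lamp3 and 7.24 (SE 0.22, adjusted p = 1.4e-11) for Rtkn2. The highest Rtkn2 values outside lung were in brain, with a mean of 4.55 TPM.

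Many more genes separated lung from liver than from brain. Of 18966 genes tested, lung was higher than liver for 11915 (62.8% of genes) and lower for 1600 (8.44%), while against brain the calls were balanced at 5485 higher (28.9%) and 5433 lower (28.6%). Heart gave 8892 higher (46.9%) and 2099 lower (11.1%), and testis 9119 (48.1%) and 5514 (29.1%). Against the mean of the 4 tissues 9018 genes were higher (47.5%) and 4824 lower (25.4%). Lung libraries held 15379 to 15599 genes at 1 TPM or more and liver libraries 11728 to 12439. The median gene lay 0.42 above the mean of the 4 tissues. When all libraries were scaled to equal medians of expressed genes the median gene lay at -0.34 and the split turned to 4535 higher (23.9%) and 8219 lower (43.3%), with 1196 above every tissue (6.31%) and 649 below (3.42%), so 65.1% of calls were higher on the deposited scale and 35.6% after that scaling. Quantile normalization gave 5770 higher (30.4%) and 7337 lower (38.7%), or 44.0% of calls higher, with 1768 above every tissue (9.32%) and 497 below (2.62%). Lung stood above every tissue for 2864 genes (15.1%) and below every tissue for 99 (0.522%), and 1072 and 80 of these respectively were called under all 3 scalings. The tissue with the next highest mean among the 2864 was heart for 41.8%, brain for 31.8%, testis for 13.7% and liver for 12.7%.

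Sequence upstream of surfactant genes is shown because Nkx2-1, the homeodomain factor of lung epithelium, is known to bind CTCAAG elements in surfactant promoters, and Foxa factors bind TGTTTAC and TGTTTGC. The 250 bases before the annotated start are from RefSeq (GRCm38.p6), 5′ to 3′ on the gene's strand, and capitals mark a match to any of these motifs on either strand. Sftpb lies on the plus strand, chr6:72304360-72304609. Sftpa1 lies on the plus strand, chr14:41131538-41131787, and Lamp3 on the minus strand, chr16:19706366-19706615.
Sftpb: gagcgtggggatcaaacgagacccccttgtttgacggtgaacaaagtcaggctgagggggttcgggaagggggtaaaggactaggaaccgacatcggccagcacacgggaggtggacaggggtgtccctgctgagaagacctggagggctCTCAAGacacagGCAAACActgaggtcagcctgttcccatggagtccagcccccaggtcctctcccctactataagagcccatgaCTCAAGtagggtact
Sftpa1: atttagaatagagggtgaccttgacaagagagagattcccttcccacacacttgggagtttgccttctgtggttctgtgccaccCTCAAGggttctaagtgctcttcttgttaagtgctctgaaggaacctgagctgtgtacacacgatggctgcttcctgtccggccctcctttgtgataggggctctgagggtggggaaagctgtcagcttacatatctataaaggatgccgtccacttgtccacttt
Lamp3: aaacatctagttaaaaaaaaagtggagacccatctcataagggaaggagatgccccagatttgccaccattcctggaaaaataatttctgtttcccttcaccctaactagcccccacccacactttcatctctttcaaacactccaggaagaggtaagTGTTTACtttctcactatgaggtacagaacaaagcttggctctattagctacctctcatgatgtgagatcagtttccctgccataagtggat
CTCAAG began 100 and 15 bases before the start of Sftpb and 166 bases before that of Sftpa1. GCAAACA, the reverse complement of TGTTTGC, began 88 bases before the start of Sftpb, and TGTTTAC began 92 bases before that of Lamp3. No overlap of these matches occurred. CTCAAG on either strand was present in 13.3% of all 32851 RefSeq promoters of this length, in 13.0% of 2352 promoters of genes above every tissue in lung, and in 14.0% of 214 promoters of the genes that were also at least 10-fold above the next tissue and at 5 TPM or more. TGTTTAC or TGTTTGC was present in 7.29%, 6.97% and 13.1% of the same sets. A match is a string of letters and was not tested as a binding site. Of 2864 genes above every tissue, 1898 had a promoter matched by symbol, and of the 280 with the larger fold 182 did.

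Surfactant and lamellar-body genes of AT2 cells were higher in lung as a group. All 20 genes of the list passed as higher, against 47.5% of all genes, and 17 stood above every tissue, against 15.1%. These shares, and 25.4% of all genes lower, are the ones to set beside the counts of every list below. With equal medians they are 23.9% higher, 43.3% lower and 6.31% above every tissue. The list's median difference was 5.68, and 4.89 with equal medians. Sftpb, whose protein inserts lipid into the surfactant film, was measured at 2570, 1915 and 1543 TPM in lung and at 0 to 0.854 elsewhere, and Sftpa1, a collectin of surfactant, at 4464, 3676 and 2998 TPM against 0 to 3.47. Their lung values were far apart from all other libraries, with differences of 10.57 (SE 0.24, adjusted p = 1.2e-12) and 10.93. Sftpd, the other surfactant collectin, differed by 8.80, the phosphate carrier Slc34a2 by 8.24 and the aspartic protease Napsa, which processes surfactant protein B, by 7.36. Abca3, the lipid pump of lamellar bodies, was less restricted, with 276, 197 and 157 TPM in lung, up to 64.7 TPM elsewhere and a difference of 3.90. The members that did not stand above every tissue were Cd36, Ctsh and Hc, named after their values were seen. Cd36, a fatty acid translocase, averaged 1422 TPM in heart against 1086, 1325 and 1007 TPM in lung, and Ctsh, cathepsin H, averaged 437 TPM in liver against 421, 691 and 594. Hc, complement component C5, averaged 849 TPM in liver against 495, 520 and 501 TPM in lung.

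**Figure D1:**
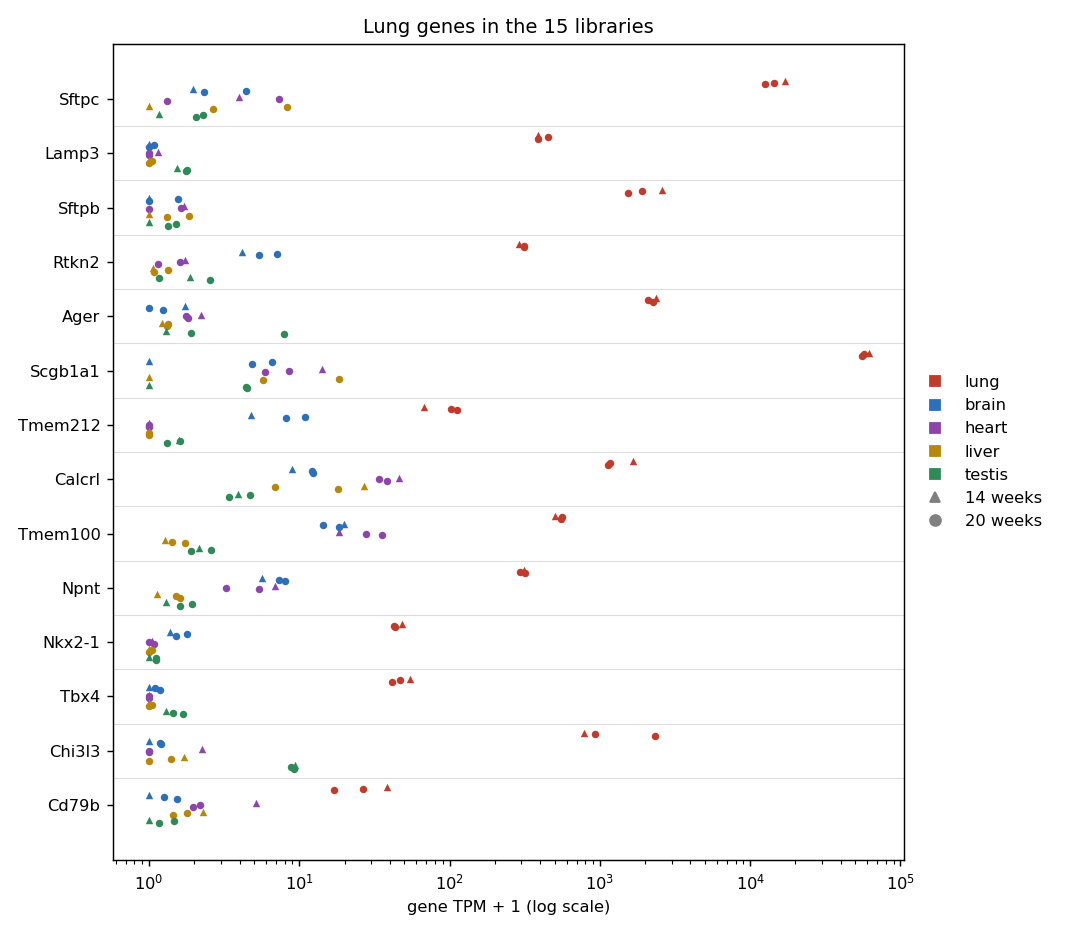
Levels of lung marker genes in each of the 15 libraries, with gene TPM + 1 on a log scale along the horizontal axis, 1 point per library, colour for tissue and marker shape for age. The 3 lung libraries lie above all 12 others for Sftpc, Lamp3 and Rtkn2.

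AT1 genes behaved alike, with 18 of 18 higher, 16 above every tissue and a median difference of 5.88. Ager, the receptor for advanced glycation end products and an abundant AT1 surface protein, stood at 2371, 2104 and 2253 TPM in lung against 0 to 6.93 elsewhere, a difference of 10.35. Cldn18, a tight-junction claudin, was at 371, 441 and 434 TPM against 0 to 0.541, a difference of 8.59. No library outside lung approached these levels. The water channel Aqp5 differed by 7.00. Cav1, the coat protein of caveolae that endothelium also makes, was at 1624, 2527 and 2243 TPM in lung and averaged 494 TPM in heart, a difference of 5.64. Spock2, a matrix proteoglycan, and Igfbp2, an insulin-like growth factor binding protein, did not stand above every tissue. Spock2 averaged 302 TPM in brain against 147, 127 and 112 in lung, and Igfbp2 averaged 203 TPM in liver against 242, 110 and 106 in lung.

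Club cell genes held the most abundant lung transcript of all those named. Scgb1a1, the secretoglobin of club cells, was measured at 61258, 56802 and 55661 TPM in lung and at 0 to 17.4 TPM (median 4.28) elsewhere. The lung libraries were close to each other and separate from all others, with a difference of 13.70 (SE 0.73, adjusted p = 2.3e-09). Of 15 tested list members 15 were higher and 13 above every tissue, with a median difference of 6.25. Summed over the list the lung libraries held 67446 to 72041 TPM, while no other library exceeded 1060 TPM. Cbr2, a carbonyl reductase of club cells, differed by 9.44, Cxcl15, the chemokine lungkine, by 10.08, and Cyp2f2, a cytochrome P450 with a liver mean of 616 TPM, by 7.75 with 1557, 1539 and 1346 TPM in lung. Other secretory genes varied among the lung libraries far more than Scgb1a1. Scgb3a2 was at 1126, 2904 and 3458 TPM, its relative Scgb3a1 at 123, 435 and 1510, and Bpifa1, an antimicrobial protein of the upper airway, at 17.4, 727 and 1234 TPM. For each of these 3 genes the 14-week library was the lowest of the lung libraries and still above all 12 others. Differences were 10.83 for Scgb3a2, 8.21 for Scgb3a1 and 7.67 (SE 0.85, adjusted p = 2.2e-06) for Bpifa1.

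Ciliated-cell genes were higher in lung than the mean of the tissues in 14 of 15 cases, against 47.5% of all genes. Above every tissue stood 4 of the 15, against 15.1% of all genes (4 and 6.31% with equal medians). Many axoneme genes are also made in the testis, where sperm flagella form. Rsph1, a radial spoke protein, was at 28.2, 31.8 and 41.2 TPM in lung and averaged 878 TPM in testis, and Tekt1, a tektin of the axoneme, was at 21.3, 14.1 and 24 TPM against a testis mean of 400. Testis thus exceeded lung for both. Foxj1, the transcription factor of motile cilia, was at 40.5, 18.8 and 17.4 TPM with a testis mean of 20.9, so the 2 tissues overlapped. Those above every tissue were Tppp3, Tmem212, Cdhr3 and Sntn, named after their values were seen. Tppp3, a tubulin-binding protein, was at 456, 395 and 352 TPM against a brain mean of 111. Tmem212, a membrane protein, was at 67, 101 and 111 TPM against at most 9.93 elsewhere. Differences were 4.64 for Tppp3, 5.65 for Tmem212, 4.79 for the cadherin-related Cdhr3 and 4.21 for Sntn, the cilium-tip protein sentan.

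Endothelial genes were higher in lung without exception in the list of 28, of which 24 stood above every tissue (18 with equal medians). The median difference was 4.22. Calcrl, the receptor subunit for adrenomedullin, was at 1671, 1166 and 1125 TPM in lung and at 2.39 to 45 TPM (median 11.2) elsewhere, a difference of 6.68. Pecam1, the platelet and endothelial adhesion molecule CD31, was at 652, 576 and 502 TPM with a heart mean of 139, a difference of 4.99, and Cdh5, the cadherin of endothelial junctions, differed by 5.08. Heart was thus the next highest tissue for Pecam1, at a level below every lung library. Tmem100, an endothelial target of bone morphogenetic protein signals, reached 501, 559 and 548 TPM against at most 34.7 elsewhere. Car4, a carbonic anhydrase of alveolar capillaries, was at 149, 279 and 285 TPM with a brain mean of 64.6, and Prx, periaxin, at 108, 88.7 and 80.6 TPM against at most 1.06. Both were separate from all other libraries, with differences of 4.62 and 6.02. Emcn, an endothelial sialomucin, showed a smaller margin, with 81.4, 93.2 and 82.4 TPM in lung and a heart mean of 76, and it did not stand above every tissue. Ednrb, the endothelin receptor B, was at 94.1, 109 and 109 TPM with a brain mean of 74.3, and although all 3 lung libraries exceeded all others it did not pass against brain.

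Smooth muscle and fibroblast genes were mostly higher. In the pericyte and smooth muscle list 15 of 17 rose and 1 fell, and 12 stood above every tissue (7 with equal medians). Acta2, smooth muscle actin, was at 235, 249 and 268 TPM with a heart mean of 168 and an overlap of 1 heart library (difference 3.21), and Cnn1, calponin, at 38.1, 63.2 and 59.3 TPM (difference 4.11). The member that fell was Rgs5, a regulator of G-protein signalling and a pericyte marker. It was at 6.01, 9.7 and 10.5 TPM in lung while heart averaged 420 TPM and brain 84.9, and the difference was -2.29 (adjusted p = 4.6e-06). Of 26 fibroblast genes 24 were higher, 16 above every tissue (10 with equal medians). Inmt, an indole N-methyltransferase, was at 1846, 1820 and 1953 TPM with a liver mean of 504, a difference of 6.99. Npnt, nephronectin of the basement membrane, was at 312, 294 and 318 TPM against at most 7.08 elsewhere (difference 6.71), and Tcf21, a transcription factor of lung mesenchyme, differed by 4.45. Both had lung libraries close together and apart from all others. Dcn, the proteoglycan decorin, was at 149, 207 and 185 TPM with a heart mean of 757, and its difference of 0.50 did not pass (adjusted p = 0.12).

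Transcription factors of lung development were mostly higher. Of 27 in the list 25 rose and 1 fell, and 20 stood above every tissue. Hopx, a homeodomain-only protein also in the AT1 list, was at 710, 981 and 901 TPM and Foxp1, a forkhead factor of airway epithelium, at 244, 220 and 194 TPM. Nkx2-1 was at 47.3, 41.9 and 42.1 TPM in lung and at 0 to 0.778 TPM (median 0.0621) elsewhere. The lung libraries lay close together and apart from all others, with a difference of 5.28 (SE 0.10, adjusted p = 4e-13). Tbx4, a T-box factor of lung mesenchyme, was at 53.6, 45.6 and 40.2 TPM, a difference of 5.38, and Tbx2, another T-box factor, at 135, 45.9 and 44.5 TPM, a difference of 5.11. For Tbx2 the 14-week library was the highest. Foxa1, a forkhead factor of endodermal tissues, was at 18, 15.2 and 17 TPM with a liver mean of 5.59, and Foxa2 at 37.3, 26.2 and 19.5 TPM with a liver mean of 12. Differences were 3.43 and 3.77, and 4.03 for Foxf2, a forkhead factor of mesenchyme. Sox2, of proximal airway epithelium and of neural cells, was at 8.97, 8.52 and 11.6 TPM in lung and averaged 29 TPM in brain. Sox9, which marks the distal tips of the embryonic airway, was the member that fell, with 0.217, 0.13 and 0.442 TPM in lung against 0.74 to 4.48 TPM elsewhere. It stood below every tissue, with a difference of -1.07.

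**Figure D2:**
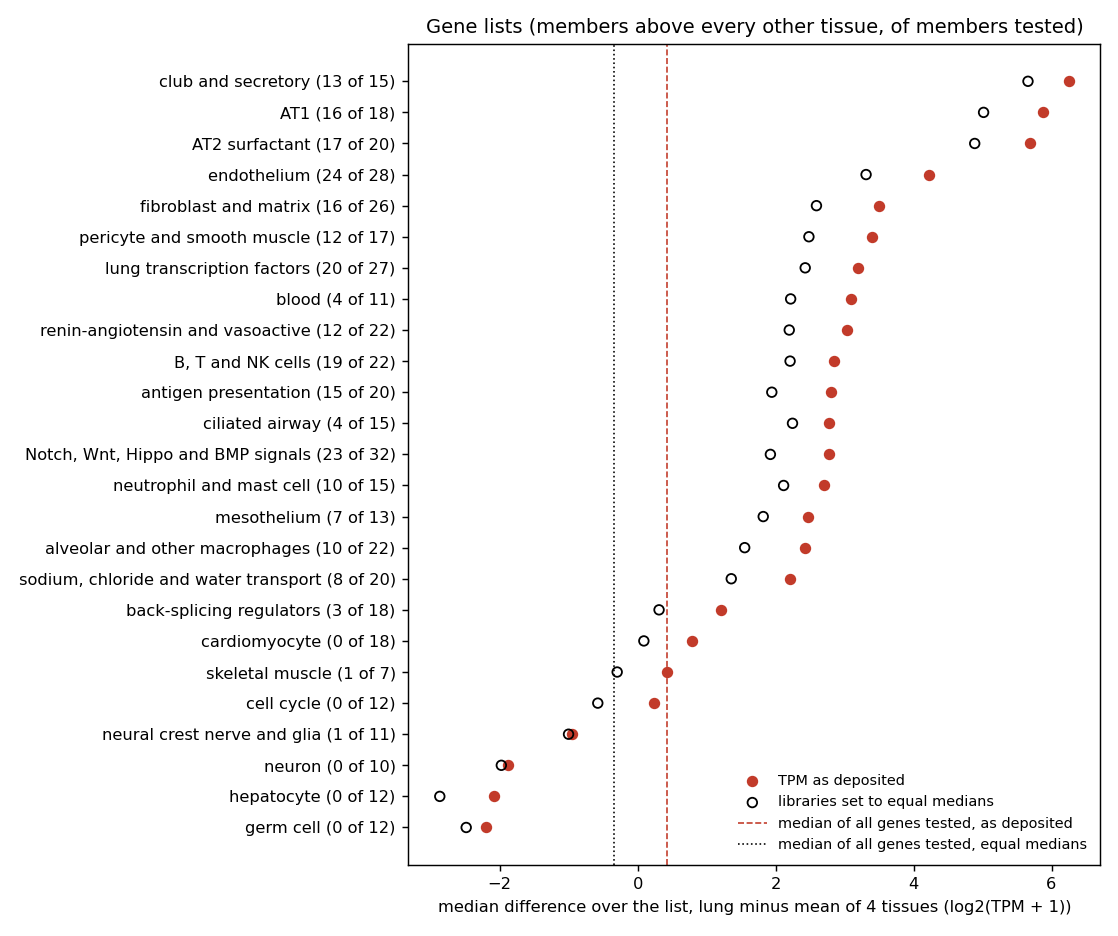
Median difference of the tested members of each gene list, lung minus the mean of 4 tissues in log2(TPM + 1), with filled points for TPM as deposited, open points for libraries set to equal medians and vertical lines for all genes tested. Filled points of the AT2, AT1 and club cell lists lie at 5.68, 5.88 and 6.25, against 0.42 for all genes tested, and the number after each name counts members above every tissue among those tested.

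Immune genes made up a further group that was higher in lung. In the macrophage list 19 of 22 passed as higher and 10 stood above every tissue, with a median of 2.43. With equal medians 14 were higher and 2 lower. Chi3l3, the chitinase-like protein Ym1 of alveolar macrophages, was at 780, 932 and 2325 TPM against a testis mean of 8.12, a difference of 9.18, and Ear2, an eosinophil-associated ribonuclease, was at 139, 143 and 119 TPM, a difference of 5.92. The lectin Siglec5 differed by 3.33 and the integrin Itgax (CD11c) by 4.62. C1qa, a complement subunit of tissue macrophages and microglia, was at 57.4, 48.1 and 36.3 TPM within the range of 7.12 to 116 TPM elsewhere, and its difference of 0.19 did not pass (adjusted p = 0.6). All 22 lymphocyte genes were higher and 19 stood above every tissue. Cd79b, of the B cell receptor, was at 37.3, 25.7 and 16 TPM (difference 3.96), and Gzma, granzyme A of cytotoxic cells, at 62.8, 67.5 and 22.7 TPM (difference 4.89). The second 20-week library was the lowest of the lung libraries for both. It was also lowest for S100a8, a calcium-binding protein of neutrophils, which was at 412, 616 and 197 TPM (difference 6.61). All 15 genes of neutrophils and mast cells were higher, 10 of them above every tissue. All 20 genes of antigen presentation were higher, 15 above every tissue (8 with equal medians). H2-Aa, a class II chain, was at 612, 550 and 510 TPM with a heart mean of 114, a difference of 4.85, and Cd74, the invariant chain, at 1136, 502 and 422 TPM, a difference of 5.03. All 11 genes of the blood list were higher too, and their part in the immune values was not tested. Of these, the beta-globin Hbb-b1 was at 8073, 5204 and 19356 TPM with a heart mean of 6260, a difference of 4.16. The second 20-week library was the highest in this globin. Other lymphocyte genes went the other way between lung libraries, Cd3g of the T cell receptor complex being at 24.8, 24.5 and 38.8 TPM.

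Ion and water transport genes of the airway surface rose in 15 of 20 cases and fell in 1, with 8 above every tissue. The subunits of the epithelial sodium channel, which clears alveolar fluid, moved together. Scnn1a was at 131, 98.7 and 105 TPM, Scnn1b at 87.7, 84.7 and 62 TPM and Scnn1g at 109, 102 and 83.5 TPM, with differences of 5.71, 6.14 and 6.48. The 3 subunits were thus within a narrow range of levels in each lung library. Aqp1, the water channel of endothelium and red cells, was at 447, 533 and 440 TPM with a heart mean of 212, a difference of 4.72. Cftr, the chloride channel mutated in cystic fibrosis, was at 13.3, 7.62 and 9.29 TPM in lung and averaged 29.1 TPM in testis. The member that fell was Clcn2, a voltage-gated chloride channel, at 6.03, 2.33 and 2.97 TPM with a difference of -1.60.

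The lung is known as the main site where angiotensin I is converted. In the list of 22 genes for the renin-angiotensin system and vascular tone, 18 rose and 1 fell, 12 stood above every tissue (7 with equal medians) and 1 below. Ace, the converting enzyme, was at 481, 490 and 457 TPM in lung with a testis mean of 254, a difference of 4.65. Every lung library exceeded all 12 others. Agt, the angiotensinogen precursor that liver secretes, went the other way, with 1.21, 0.756 and 0.343 TPM in lung against 2.41 to 535 TPM (median 75.2) elsewhere. It stood below every tissue, with a difference of -4.95 (SE 0.29, adjusted p = 4.8e-09), and its liver mean was 362 TPM. Edn1, endothelin, differed by 4.03 and Acvrl1, the endothelial receptor ALK1, by 5.68.

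All 32 genes of a list of Notch, Wnt, Hippo, BMP and related signals were higher, 23 above every tissue, though with equal medians 30 were higher and 10 above every tissue. Vegfa, the endothelial growth factor, was at 1034, 714 and 732 TPM with a heart mean of 340, a difference of 3.88. Shh, a morphogen of airway epithelium, was at 4.39, 4.2 and 3.84 TPM, a difference of 1.96. The lung libraries agreed closely for Shh. Wnt3a, a Wnt ligand, was at 14.7, 3.09 and 3.85 TPM, a difference of 2.46, with the 14-week library the highest.

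Genes lower in lung than in all 12 other libraries were few, 129 or 0.68% of those tested, against 3153 (16.6%) with lung above all 12. The largest such difference was that of Agt, given above. Necab1, a neuronal calcium-binding protein, was at 0.217, 0.433 and 0.43 TPM in lung against 0.876 to 82.3 TPM elsewhere, a difference of -4.12. Lin7a, a scaffold protein of synapses and epithelia, was at 0.121, 0.181 and 0.0514 TPM against 1.64 to 51.2 TPM, a difference of -3.77. Prlr, the prolactin receptor, was at 1.15, 1.39 and 1.12 TPM against 5.87 to 621 TPM, a difference of -3.47. For each of these every lung library lay below the lowest other library. Slco1a4, an organic anion transporter of the blood-brain barrier, was at 0.252, 0.606 and 0.257 TPM against 0.611 to 225 TPM (difference -3.75), and it did not pass against every tissue. Dgat2, an enzyme of triglyceride synthesis, was at 7.42, 11.3 and 17.8 TPM against 38.1 to 367 TPM (difference -3.53). Paqr9, a membrane receptor of the progestin and adipoQ family, was at 1.71, 1.94 and 2.89 TPM against 14.4 to 218 TPM (difference -3.68). Cdh2, N-cadherin, was at 7.67, 5.79 and 9 TPM against 33.1 to 229 TPM, a difference of -3.21. Lung thus had the lowest N-cadherin level of the 5 tissues in every library.

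Markers of the other tissues were low in lung, those of heart muscle the least so. Of 10 neuronal genes 9 were lower and 1 higher. Snap25, a synaptic vesicle fusion protein, was at 0.341, 0 and 0.606 TPM in lung and averaged 1885 TPM in brain. The member that was higher was Stmn2, a tubulin-binding protein of growing axons, at 39.4, 40.7 and 48.8 TPM with a brain mean of 265 and a difference of 2.60. No hepatocyte gene and no germ cell gene was higher, 10 of 12 and 12 of 12 being lower. Summed levels in lung were 81.5 to 124 TPM for the hepatocyte list, 14.3 to 53.1 TPM for the germ cell list and 50.2 to 58.2 TPM for the neuronal list. Of the cardiomyocyte list 6 of 18 were higher and 4 lower (4 and 6 with equal medians), against 47.5% and 25.4% of all genes. Summed, it reached 753 to 1208 TPM in lung, against 198 to 320 TPM in brain, 142 to 161 in testis, 12.7 to 34.3 in liver and 94019 to 101265 in heart. Myh6, the alpha-myosin heavy chain, was at 109, 126 and 112 TPM in lung (heart mean 10957), and the atrial light chain Myl7 at 119, 262 and 226 TPM (heart mean 1817). Sln, sarcolipin, an atrial calcium-pump regulator, was at 13.1, 49.6 and 49.8 TPM (heart mean 491). Differences were 2.51 for Myh6, 4.61 for Myl7 and 2.32 for Sln. Myl2, the ventricular light chain, was at 52, 20.2 and 26.4 TPM against a heart mean of 32017, and its difference of -0.70 did not pass (adjusted p = 0.34). Cardiac muscle is known to sheathe the pulmonary veins of mice, and its part in these values was not tested. Of 7 skeletal muscle genes 2 were higher and 1 lower, against 47.5% and 25.4% of all genes. Tnnt3, fast skeletal troponin T, was at 5.6, 7.18 and 21.1 TPM against at most 4.08 elsewhere. No thymus or esophagus marker reached the level for testing, and together they summed to 1.4 to 4.3 TPM in lung. Of 11 genes of peripheral nerve and glia 3 were higher and 6 lower (1 and 7 with equal medians), and of 13 mesothelial genes 12 were higher and 7 above every tissue (3 with equal medians).

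Low levels of abundant tissue transcripts were present outside their tissue. Sftpc was at 0 to 2.97 TPM in the 4 non-lung libraries of 14 weeks and at 0.322 to 7.27 TPM in the 8 of 20 weeks, and Scgb1a1 at 0 to 13.0 and 3.41 to 17.4 TPM. Prm1, protamine of sperm, averaged 10418 TPM in testis. Outside testis it was at 0 to 0.638 TPM at 14 weeks and 1.97 to 7.71 TPM at 20 weeks. In lung it was at 0.638, 3.81 and 7.57 TPM. Its call as lower in lung (-2.40, adjusted p = 0.0079) was lost without the 14-week lung library (adjusted p = 0.0721). Alb, the albumin of hepatocytes, was at 68, 19.4 and 28.2 TPM in lung against a liver mean of 52710, and its difference of -1.48 did not pass (adjusted p = 0.17). Whether carry-over between libraries plays a part in such values was not tested.

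The genes most like the markers across the 15 libraries were ranked by Spearman correlation as a description. For Sftpc they were Sftpb (0.927), Scgb1a1 (0.925), Apobec3 (0.896), Gusb (0.875) and Sftpa1 (0.861). For Rtkn2 they were Ints8 (0.982), Zfp472 (0.954), Cog3 (0.946), Emb (0.943) and Wbp5 (0.943), none of which belongs to the AT1 list. For Lamp3 they were O3far1 (0.947), Gpr137b-ps (0.942), Vmn2r9 (0.928), Calml3 (0.924) and Hoxa6 (0.921). The points share libraries and fall into 5 tissues, and no p is given.

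Total circRNA in lung lay between liver and heart on one side and testis and brain on the other. The lung libraries summed to 3971, 4539 and 4253 RPM, or 4254 ± 284 RPM (SD, n = 3). This was 3.00-fold above liver, 2.13-fold below testis and 6.48-fold below brain, with no overlap of libraries. An exact permutation test of 3 against 3 libraries (two-sided) on log2 totals gave p = 0.1 for each, the smallest it allows. Lung overlapped with heart (1.18-fold higher, exact permutation p = 0.2), and against all 12 libraries the log2 difference was -0.49 (exact permutation p = 0.644). Thinned to 1231 reads, lung libraries held 904 ± 20.3 (SD, n = 3) kinds of circRNA against 810 in heart, 822 in liver, 922 in testis and 928 in brain. The 10 most abundant circRNAs took 5.98% to 7.99% of lung reads and 11.9% to 18.6% of heart reads. Lung libraries thus held more kinds at equal reads than every heart or liver library (exact permutation p = 0.1 for each, the smallest possible), and overlapped with brain and testis.

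In all, 3586 circRNAs had a read in lung, from 2037 host genes. Of these, 292 were read in all 3 lung libraries and 36 in all 15 libraries. CircRNAs read in lung and in none of the other libraries numbered 657 and took 11.0% of the 7689 lung reads. They were thinly covered, since 554 had a single read and 8 were seen in all 3 lung libraries. Sftpc had no circRNA in the table.

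CircRNAs lower in lung were counted far more often than circRNAs higher in lung. The filter asked for 20 reads over the 15 libraries. Brain libraries held 14068 to 21432 back-splice reads and testis libraries 5606 to 23286, against 2024 to 3212 in lung. Without brain 395 circRNAs met the filter. A circRNA that met it through such reads leans toward a lower call in lung by that choice. Among the 842 circRNAs tested, lung was higher for 32 (3.8%) and lower for 241 (28.6%), and 6 stood above every tissue (0.713%) and 0 below. No circRNA lay below all 12 other libraries in all 3 lung libraries, and 9 (1.07%) lay above. To lie below, a circRNA must be read in each of the 12, and liver libraries held reads of 816 to 1260 circRNAs. Depth thus limits the counts below, which do not compare with those above. Of the 241 lower circRNAs, 170 had their highest mean in brain and 63 in testis, and the shares among all 842 were not counted. Against single tissues, lung was higher for 16 (1.9%) and lower for 531 (63.1%) compared with brain, and higher for 56 (6.65%) and lower for 213 (25.3%) compared with testis. The balance turned against liver, with 64 higher (7.6%) and 6 lower (0.713%), and was near even against heart, with 27 (3.21%) and 20 (2.38%). The lower calls depended on the scaling and on the test. After scaling to equal totals 61 were higher and 159 lower, and with equal medians 75 and 1. On recovered reads edgeR's quasi-likelihood test counted 33 higher and 0 lower with TMM normalization (77 and 13 at an unadjusted p under 0.05), and 21 and 0 without (64 and 16). Single libraries also moved these counts. Without the first or the second 20-week lung library 20 and 19 were higher and 153 and 134 lower, and without the 14-week or first 20-week brain library 159 and 148 were lower. Without the first 20-week lung library 3 stood above every tissue.

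The circRNAs that led the comparison came from the AT2 and AT1 genes themselves. Coordinates are in build mm9. The more abundant circRNA of Lamp3, chr16:19673484-19676173 on the minus strand, spanned 2690 bases of genome and was measured at 17.3, 49.96 and 29.4 RPM in lung (14, 27 and 14 reads). Elsewhere it was at 0 to 1.13 RPM, 2 reads in all. A longer Lamp3 circRNA that shares the lower coordinate, chr16:19673484-19701475, spanned 27992 bases and was at 9.89, 25.9 and 14.7 RPM, with 29 lung reads and none elsewhere. In both, the lung libraries lay above all others and the first 20-week library was the highest. Differences were 4.57 (SE 0.29, adjusted p = 6.3e-08) and 3.84, and the longer form was at least 61.1-fold higher in lung, set against a floor of 3 reads over the 12 libraries. A circRNA of Rtkn2, chr10:67480554-67489397, was at 9.89, 14.8 and 21.0 RPM, with 26 lung reads and none elsewhere. It was at least 55.3-fold higher (difference 3.75, adjusted p = 2.2e-08). In all, the table held 2 circRNAs of Lamp3 with 84 lung reads and 3 of Rtkn2 with 31.

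Both Lamp3 circRNAs were lower in lung relative to their host than elsewhere, with differences of -3.88 and -4.61 in log2(circRNA) minus log2(host). Because Lamp3 mRNA was near 0 in the other tissues, the pseudocounts set the ratio there, and this value does not compare back-splicing between expressing tissues.

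**Figure D3:**
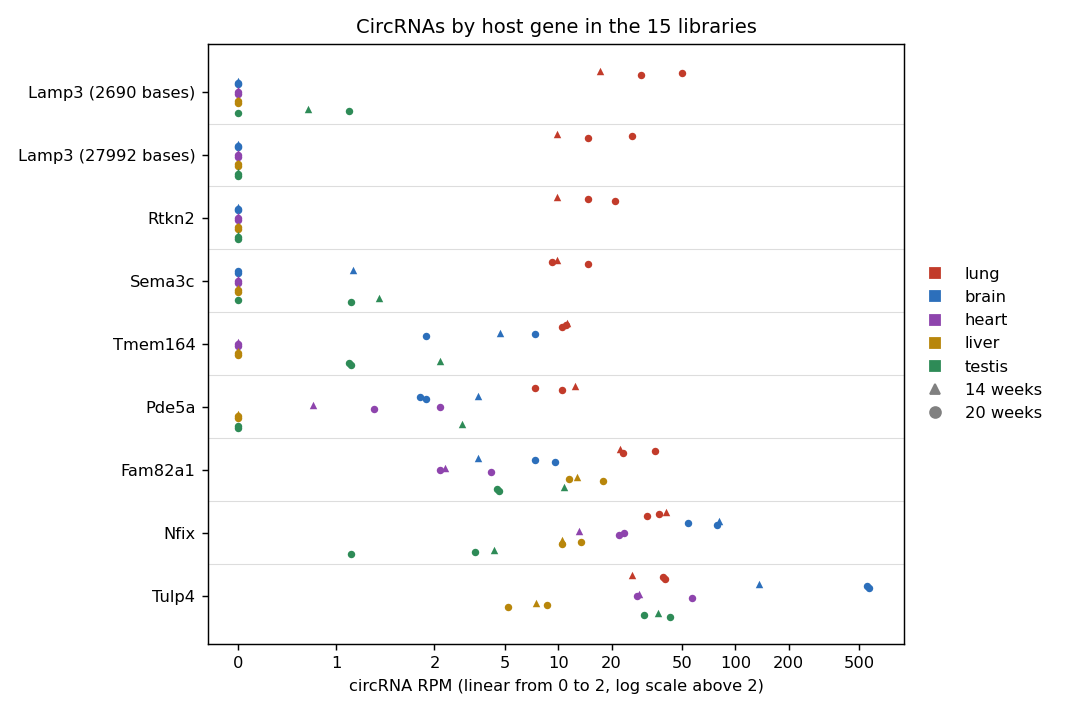
Levels of lung circRNAs in each of the 15 libraries, with RPM along the horizontal axis (linear from 0 to 2, log scale above), 1 point per library, colour for tissue and marker shape for age. Both Lamp3 circRNAs and the Rtkn2 circRNA lie above all 12 other libraries in every lung library, while Tulp4 is highest in brain.

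The other circRNAs above every tissue came from Sema3c, Tmem164 and Pde5a. A circRNA of Sema3c, a secreted semaphorin, at chr5:17184130-17187901, was at 9.89, 9.25 and 14.7 RPM against 0 to 1.44 elsewhere (difference 3.12, adjusted p = 5.3e-06). One of Tmem164, a membrane protein gene, at chrX:139186583-139268936, was at 11.1, 11.1 and 10.5 RPM against 0 to 7.42 (difference 2.52, adjusted p = 6.9e-05). One of Pde5a, the cGMP phosphodiesterase inhibited by sildenafil, at chr3:122450807-122451395, was at 12.4, 7.40 and 10.5 RPM against 0 to 3.53 (difference 2.41, adjusted p = 9.4e-04). In these 3 every lung library exceeded the 12 others. The Pde5a host averaged 190 TPM in lung, with a difference of 5.02. Pde5a had other circRNAs that passed but were less restricted. That spanning 36501 bases was at 4.95, 3.70 and 6.30 RPM in lung and averaged 26.9 RPM in brain (difference 1.10, adjusted p = 0.0129), and that of 23808 bases differed by 1.36. The call of the 36501-base form was lost without the second 20-week lung library (adjusted p = 0.0679), and that of the 23808-base form without the first (adjusted p = 0.0725).

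Other circRNAs higher in lung overlapped with another tissue. That of Trpc6, a cation channel of smooth muscle, was at 16.1, 5.55 and 12.6 RPM in lung with a brain mean of 12.1 (difference 2.22). That of Myzap, a protein of cardiac and endothelial junctions, was at 6.18, 11.1 and 12.6 RPM with a heart mean of 6.40 (difference 2.58). That of Mmp15, a membrane-bound metalloproteinase, was at 8.65, 14.8 and 2.10 RPM against at most 2.30 elsewhere (difference 2.31), so only the second 20-week lung library overlapped with the others. A circRNA assigned to no host, chr3:75162269-75201023, was at 12.4, 25.9 and 16.8 RPM with a brain mean of 9.93 (difference 3.03).

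Of the 8 circRNAs with the highest mean in lung, 6 had a higher mean in brain, the exceptions being those of Lamp3 and Fam82a1. That of Nfix, a nuclear factor I gene, at chr8:87295683-87296214, was at 40.8, 37.0 and 31.5 RPM in lung and averaged 71.2 RPM in brain (difference 1.20, adjusted p = 0.0085), above every lung library. That of Tulp4, a tubby-like protein, was at 26.0, 38.9 and 39.9 RPM in lung and averaged 419 RPM in brain, 37.6 in heart, 36.6 in testis and 7.12 in liver. Its difference of -0.33 did not pass (adjusted p = 0.53) and turned positive after scaling. For Tulp4 the lung libraries thus overlapped with those of heart and testis and lay below brain.

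The calls of circRNAs were set beside those of their host genes. Of the 31 higher circRNAs with a tested host, 80.6% had a host that was higher in lung and 32.3% one above every tissue, against 56.1% and 7.90% for the hosts of all 823 circRNAs counted by circRNA. Of 234 lower circRNAs, 36.8% had a higher host and 38.0% a lower one, against 56.1% and 19.2% for all 823. In the other direction, genes above every tissue in lung hosted 65 tested circRNAs, from 53 genes. Of these 65 circRNAs 10 were higher, 3 lower and 52 neither, against 3.8% higher and 28.6% lower among all 842 tested.

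**Figure D4:**
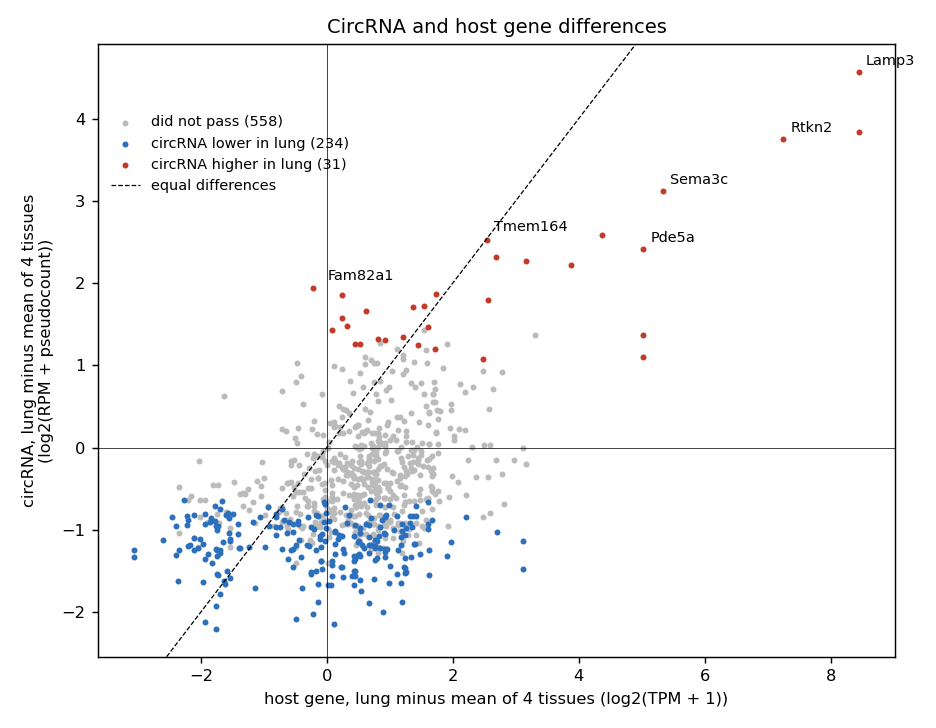
Each tested circRNA with a host, with the host's lung difference (log2(TPM + 1)) on the horizontal axis and the circRNA's lung difference (log2(RPM + 1.18)) on the vertical axis, coloured by the circRNA's call, and a dashed line where both differ equally. The Lamp3 and Rtkn2 circRNAs lie at the upper right, and the Fam82a1 circRNA lies high at a host difference of 0.24.

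CircRNA relative to host was lower in lung for 347 of 825 circRNAs (42.1%) and higher for 51 (6.18%). It lay below every tissue for 48 (5.82%) and above every tissue for 0. All 825, and the 286 used below, met the filter of 20 reads, which leans toward lower calls in lung as described above. Without brain 382 met it, of which 22 were higher and 127 lower. The counts also followed the pseudocount, with 10 higher and 202 lower when it was divided by 5 and 109 and 470 at 5 times. Leaving out the 14-week, first 20-week or second 20-week lung library, or any of the brain libraries, left 26 to 33 of the 51 higher calls by count. Hosts silent outside lung enter these counts, so the comparison was repeated, as a choice made after seeing the data, on the 286 circRNAs with a host at 1 TPM or more in all 15 libraries and a read in each tissue. There 4 were higher and 68 lower (9 and 102 at an unadjusted p under 0.05 by limma), with a median of -0.77. Over all 825 the largest differences were 2.25 for a circRNA of Tmem56, with 11 lung reads, and -4.61 for the longer Lamp3 form. Relative to host, the Tmem56 circRNA passed against liver (2.65) and testis (6.14) but not against brain (0.26) or heart (-0.04).

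Fam82a1 gave a circRNA that was higher in lung while the host's difference from the mean of the tissues did not pass. Its circRNA at chr17:80049642-80058813 was at 22.3, 35.2 and 23.1 RPM in lung, while tissue means were 14.0 RPM in liver, 6.84 in brain, 6.64 in testis and 2.86 in heart, and no other library exceeded 17.8 RPM. All 3 lung libraries lay above all 12 others, though it did not stand above every tissue by the test. The difference was 1.86 (SE 0.35, adjusted p = 0.0023), and the host gene differed by 0.24 (adjusted p = 0.18). That value averages host means on either side of the lung mean of 39.4 TPM, with 16.0 in brain and 14.9 in heart below it and 62.8 in liver and 80.9 in testis above. The difference relative to host was 1.61 (adjusted p = 0.0112 among the 286), and over all 825 it did not pass against brain (0.59). Fam82a1 is an older symbol of Rmdn2, which encodes a regulator of microtubule dynamics. Fbxw7, a ubiquitin ligase subunit, had a circRNA at chr3:84707423-84708001 at 8.65, 7.40 and 4.2 RPM in lung with a brain mean of 3.46, and at most 4.70 RPM in any other library, so the groups overlapped. Its circRNA differed by 1.94 and its host by -0.23, giving 2.16 relative to host (adjusted p = 0.00549). Relative to host, the Fbxw7 circRNA did not pass against liver (-0.20) in the fit over all 825. It had 11 reads over the 12 other libraries, so the pseudocount set much of their values. Among the 286, the other circRNAs higher relative to host were those of Alg13, of protein glycosylation, at 1.5 (adjusted p = 0.0231), and Bckdhb, of branched-chain amino acid breakdown, at 1.39 (adjusted p = 0.0497). In the fit over all 825 circRNAs, Alg13 and Bckdhb did not pass relative to host against brain (0.23 and 0.06), nor Bckdhb against testis (0.30). Single libraries were left out from that fit only, not among the 286. There the Alg13 call was lost without the 14-week (adjusted p = 0.0882) or the first 20-week lung library (adjusted p = 0.0931). The Bckdhb call was lost there when any 1 of 10 libraries was left out.

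Among the same 286, the circRNAs that fell most relative to host had few reads in lung. Reads over the 3 lung libraries were 1 each for Atxn1, Mef2a, Cept1 and Nbeal1, 3 for Fbxl17 and 4 for Rod1, so the pseudocount and the host level set much of the lung value. Atxn1, the gene of spinocerebellar ataxia type 1, had 1 of its circRNAs at an average of 54.1 RPM in brain and 0.412 RPM in lung, with a difference relative to host of -2.82 (adjusted p = 2.5e-05). Mef2a, a transcription factor of muscle and neurons, gave -2.77, Cept1, an enzyme of phospholipid synthesis, -2.62, and Rod1, a polypyrimidine tract binding protein, -2.54. Fbxl17, a ubiquitin ligase subunit, gave -2.48 and Nbeal1, a BEACH domain protein, -2.43. In the fit over all circRNAs with a host, not the 286, the Cept1 call did not pass without the first 20-week lung library (adjusted p = 0.0512).

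Splicing factors linked to back-splicing were examined as a list of 18. On the deposited scale 16 were higher and 1 lower, against 47.5% and 25.4% of all genes, and the median was 1.21. Above every tissue stood 3 of 18, near the 15.1% of all genes. With equal medians 7 were higher and 2 lower, with a median of 0.31. Mbnl1, a muscleblind protein that binds introns flanking its own circRNA, was at 243, 237 and 206 TPM (difference 2.09), and Mbnl3 at 13.9, 26.1 and 14.9 TPM (difference 2.77). Esrp1, an epithelial splicing regulator, was at 17.7, 21.4 and 24.7 TPM, a difference of 3.82. The member that was lower was Rbm20, which promotes circRNA formation from titin in heart, at 3.44, 2.92 and 2.29 TPM against a heart mean of 138 (difference -0.91). Of 12 cell cycle genes 5 were higher and 1 lower on the deposited scale and 0 and 6 with equal medians, so their direction depends on the scaling.

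Between 14 and 20 weeks, some genes changed in lung by an amount unlike the mean change of the 4 other tissues, by limma. A single other tissue could change as much as lung. Ddx3y was at 0, 71.2 and 70.7 TPM in heart, the 14-week library first. The same comparison was made for circRNAs and for circRNA relative to host, and its outcome is not reported here. The spread in this test comes from the 20-week pairs alone, and the single 14-week libraries are assumed to vary like them. With 1 library of 14 weeks per tissue, age and that library cannot be told apart.

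**Figure D5:**
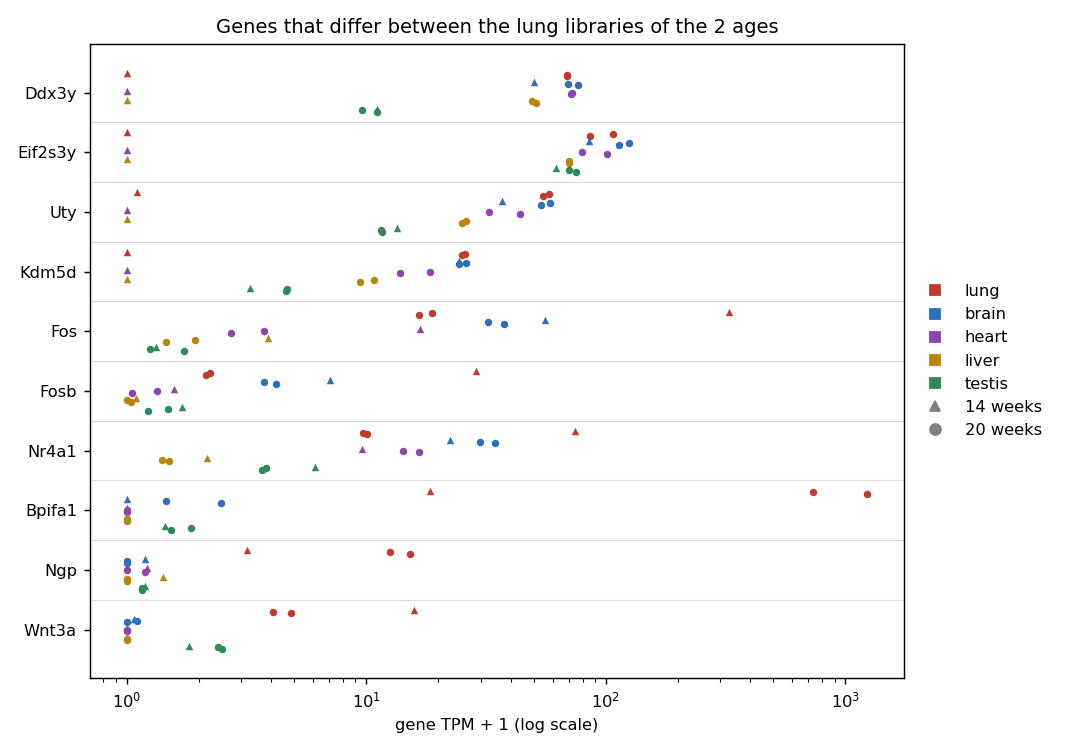
Genes whose lung level differed between the 14-week and the 20-week libraries beyond the other tissues, with TPM + 1 on a log scale along the horizontal axis, 1 point per library, colour for tissue and marker shape for age. Fos stands at 325 TPM in the 14-week lung library and at 17.8 and 15.6 TPM in the 20-week ones.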

How the data were processed

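Deposited gene TPM values and deposited circRNA RPM values of 15 libraries were used; both units are the authors' own. Per the submitters' processing notes, builds mm9 and rn5 and the tools CASAVA 1.8.2, TopHat2 2.0.6 and Cufflinks 2.2.1 were used, and the program that called circRNAs is not given in the sources at hand. The gene columns sum to 1000000. In the deposited RPM columns 100% of values were whole multiples of the value of 1 read (tolerance 0.1), so read counts were recovered for the read floor and edgeR. The labels call this circRNA table TPM; it is called RPM here because its values are multiples of 1 read per library, and what they are relative to is not given. The 13 other columns of per-sample values in the tables, and the rat files, were not used.

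Genes at 1 TPM or more in at least 3 libraries (18966 of 24601) and circRNAs above 0 in at least 3 libraries with at least 20 reads (842 of 28482) entered limma 3.58.1 (trend, R 4.3.3) on log2 values, with 5 tissue means, a pseudocount of 1 TPM, and for circRNAs the median value of 1 read, 1.18 RPM. Of these circRNAs 825 had a host in the gene table. edgeR 4.0.16 was the alternative on recovered reads. Other steps used Python 3.11.15 with pandas 2.3.3, numpy 2.4.6, scipy 1.17.1 and matplotlib 3.10.9. Log2 values compress changes of features near the pseudocount. On simulated data with known changes, the gene fit found 100% of changes of 2 and of 3 on the log2 scale. It called 0.0533% of unchanged genes. The circRNA fit found 53% and 71% and called 1.25%. Apart from the changes set in lung, each simulated feature had the same mean in all libraries, with noise drawn separately. Differences among the other tissues and deviations shared by libraries of the same age were absent. These shares therefore do not give the accuracy of the calls on the real data. Depth limits circRNAs most, and read floors cover counting error only.

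Named genes were the 8 largest differences in each direction with groups apart and at least 5 TPM, the 3 markers, and the 4 most abundant members of each list. Named circRNAs were up to 8 largest in each direction with groups apart and a mean of at least 10 pseudocounts, and the 8 highest in lung. In the lower direction 0 had groups apart. For circRNA relative to host they were the 6 largest in each direction. Of the latter, circRNAs with 0 or 1 lung read are not described, and the others named come from the restricted set. All other genes and circRNAs named, and the genes that differed with age, were chosen after their values were seen. The members and lists were chosen with earlier results of these data known. Some items are not reported here. Alternatives covered scaling, pseudocounts, filters, tools, age and single libraries.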

Additional observations from a re-analysis of the deposited data

Results flagged for a closer look

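For some genes the change between 14 and 20 weeks in lung differed from the mean change of the 4 other tissues. This was limma's test of the difference itself, adjusted over all genes. Each value is the lung difference at 20 weeks minus that at 14 weeks on the log2(TPM + 1) scale. In each tissue 1 library stands for 14 weeks, so the spread comes from the 20-week pairs alone. The 14-week libraries are assumed to vary like them. A single other tissue could change as much as lung or more. Rps16, for 1, was at 22.8, 486 and 493 TPM in brain, the 14-week library first. Genes of the Y chromosome were among those that differed. Ddx3y was at 0, 68.1 and 67.8 TPM in lung (3.04, adjusted p = 0.000536), and Eif2s3y at 0, 106 and 84.9 TPM (3.25, adjusted p = 0.00184). Uty was at 0.103, 56.9 and 53.8 TPM (3.10, adjusted p = 0.00232) and Kdm5d at 0, 24.9 and 24 TPM (2.70, adjusted p = 0.00669). The 14-week lung library thus lacked transcripts that both 20-week ones held, as did the 14-week heart and liver libraries but not those of brain and testis. The labels give no sex, so sex and age cannot be told apart between these lung libraries.

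Immediate-early genes, which respond within minutes to stimulation or handling, were higher in the 14-week lung library. Fos was at 325, 17.8 and 15.6 TPM in lung and at 0.251 to 54.8 TPM elsewhere (-3.18, adjusted p = 0.0187). Fosb was at 27.6, 1.22 and 1.14 TPM (-3.30, adjusted p = 0.00184) and Nr4a1 at 73.1, 8.65 and 9.06 TPM (-2.89, adjusted p = 0.00232). Their part in the other lung results was not tested.

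Bpifa1 differed by 5.40 (adjusted p = 0.00414), the largest value here, and Wnt3a by -1.92 (adjusted p = 0.00462). Among genes of granulocytes, Ngp, neutrophilic granule protein, was at 2.19, 11.6 and 14.3 TPM (2.36, adjusted p = 0.00308), and Cxcr1, a chemokine receptor, at 11.8, 1.38 and 1.57 TPM (-2.38, adjusted p = 0.000275). They moved in opposite directions. Rps16, a ribosomal protein gene, was at 140, 684 and 697 TPM in lung and at 22.8 to 493 TPM elsewhere (0.89, adjusted p = 0.0187).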

How the results depend on the processing

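Against the mean of the 4 tissues, counts of genes (higher, lower, above and below every tissue) were 4535, 8219, 1196 and 649 with equal medians and 5770, 7337, 1768 and 497 with quantile normalization. With the 12 libraries pooled as 1 group 2806 genes were higher and 62 lower, without brain 5309 were above every tissue, and with 20-week libraries only 150 were below. CircRNAs counted as higher were 62 with no read floor, 61 with equal totals, 75 with equal medians, 21 with edgeR without TMM, 21 with 20-week libraries only and 4 with pooled groups. Those lower were 159 with equal totals, 1 with equal medians, 0 with edgeR with or without TMM, 72 with 20-week libraries only, 79 without brain and 0 with pooled groups. Those above every tissue were 10 with a pseudocount 5 times larger, 20 with no read floor, 10 with equal totals, 11 with equal medians, 1 with 20-week libraries only and 11 without brain. Relative to host, 10 were higher and 202 lower with the pseudocount divided by 5, 109 higher with 5 times the pseudocount, 464 and 2418 with no read floor, 4 and 68 in the restricted set, 9 and 105 with 20-week libraries only, 22 and 127 without brain, and 0 and 94 with pooled groups. The log2 difference of total circRNA turned to 0.24 without brain. Causes were not tested beyond what each setting changes. With single libraries left out, genes ranged over 7988 to 9302 higher, 3493 to 4729 lower, 2293 to 2901 above and 74 to 112 below every tissue. CircRNAs ranged over 19 to 34 higher, 134 to 228 lower, 3 to 8 above and 0 below, relative to host over 26 to 48 higher and 249 to 339 lower, and the total over -0.69 to -0.28.

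Among features named, Dcn turned to -0.43 with equal medians, C1qa to -0.73 with equal medians and -0.31 with quantile normalization, and the Tulp4 circRNA to 0.19 with equal totals, 0.46 with equal medians and 0.66 without brain; none of these had passed. For the 99 genes named with a difference, 2290 of 2334 values under alternatives kept direction and call. For 16 circRNAs 373 of 392 did, and for 14 circRNAs relative to host 276 of 301. With pooled groups 26 genes and 11 circRNAs lost their call. The age differences were computed on deposited values only. With the replicate block 9386 genes were higher and 5063 lower, with 3064 above and 121 below every tissue, and 34 circRNAs were higher and 246 lower; relative to host 50 were higher and 365 lower. Deviations of 20-week libraries with the same number correlated across tissues at 0.016 to 0.098 for genes, with 0 of 10 pairs over 0.1, so the numbers were not taken as a pairing. Deviations of the 14-week from the 20-week libraries did correlate across tissues, at 0.156 to 0.506 for genes (10 of 10 pairs over 0.1) and at 0.0597 to 0.228 for circRNAs (9 of 10), and the comparison with 5 tissue means has no term for this.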
